A study of Mus musculus with 4 samples.

Results

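Sv2a, Sv2b and Sv2c encode the 3 members of the synaptic vesicle glycoprotein 2 family and were taken by name, 3 of the 31053 genes counted, in all 4 single-nucleus libraries of the study. SV2 proteins span the synaptic vesicle membrane with many helices and resemble sugar transporters. They take part in priming vesicles for calcium-triggered release and bind the calcium sensor synaptotagmin; SV2A is the binding site of the antiseizure drug levetiracetam, and SV2 proteins serve as neuronal receptors for botulinum neurotoxin A. In the rodent brain SV2A is described as nearly ubiquitous among synapses, SV2B as enriched at glutamatergic ones and SV2C as restricted to the basal ganglia, midbrain and a few other sites.

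The nuclei came from brains of male C57BL/6J mice taken at 8 weeks of age. Each animal had been injected through the cisterna magna at 4 weeks with an AAV, an adeno-associated viral vector. The vector named AAV-VEGF-C expresses murine VEGF-C, the main lymphatic growth factor. The control, AAV-CTRL, expresses a piece of soluble VEGFR3 that cannot bind its ligand, joined to an immunoglobulin tail. Frozen tissue of 5 brains was pooled per virus, and 1 library was made for each virus from tissue labelled cortex and from tissue labelled striatum, so all animals carried a virus and each group is 1 library. No difference below has a replicate check and no test was run: intervals are 95% exact ones and cover counting error only. Where values of several libraries are listed, cortex comes before striatum and, within a label, the control virus before VEGF-C.

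The 4 libraries held 17168 to 23724 nuclei with 63165470 to 78332657 unique molecular identifiers (UMIs), medians of 2272 to 2873 UMIs per nucleus and 76 to 118 cell barcodes shared between any pair. After doublets were left out, 72653 of 78728 nuclei remained, 39693 of them neuronal. The region labels need care, because Ppp1r1b, the DARPP-32 gene of striatal projection neurons, stood at 63.6 and 76.1 counts per 1000000 UMIs (CPM) in the libraries labelled cortex and at 18.9 and 18.4 CPM in those labelled striatum. Nuclei named striatal projection neuron-like were 7.44% and 7.92% of the former and 2.09% and 1.94% of the latter, whose neurons were mostly Slc17a6 neurons and Gad neurons outside the cortical interneuron classes. "Cortex" and "striatum" are therefore used here only for the library labels.

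The 3 genes were told apart by position and by sequence. On GRCm38, Sv2a (ENSMUSG00000038486) lies on the plus strand at chr3:96181151-96195521 and spans 14.4 kb. Sv2b (ENSMUSG00000053025) lies on the minus strand at chr7:75114894-75309262 and spans 194 kb, and Sv2c (ENSMUSG00000051111) on the minus strand at chr13:95954594-96132577 spans 178 kb. Aligned coding sequences were 68.0% identical between Sv2a and Sv2b, 66.4% between Sv2a and Sv2c and 66.1% between Sv2b and Sv2c. The longest stretch that each pair shares without a mismatch is shown to give the size of what a read could confuse, with the first position counted from 1 at the start codon of the first-named gene.

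Sv2a and Sv2b, from 1246, 15 bases: tggtaccagcgctgg
Sv2a and Sv2c, from 982, 18 bases: taccagttccacagctgg
Sv2b and Sv2c, from 925, 26 bases: aaacatgatgaagcctggatgattct

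All 3 runs lie in coding sequence. In the last 1000 bases of the transcripts, where 3′ libraries prime on the tail, no pair shared more than 11 bases in a row.

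Sv2a was counted at 279 CPM in the control and 322 CPM in the VEGF-C library of cortex, and at 375 and 417 CPM in those of striatum. Sv2b stood at 414 and 403 CPM in the cortex libraries and at 123 and 118 CPM in the striatum libraries. Sv2c was the least counted, with 52.5 and 51.9 CPM under the cortex label and 61.8 and 63.3 CPM under the striatum label. The genes were also set side by side per length, although 3′ tags need not scale with length. Per kb of gene span, Sv2a ran from 19.4 to 29.0 CPM, Sv2b from 0.61 to 2.13 and Sv2c from 0.29 to 0.36. Per kb of exon the ranges were 60.1 to 89.9, 14.1 to 49.4 and 5.35 to 6.52 CPM. Sv2a led and Sv2c was last in every library on both of these scales. Without division by length Sv2c was also last, but Sv2b was above Sv2a in both cortex libraries.

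**Figure D1:**
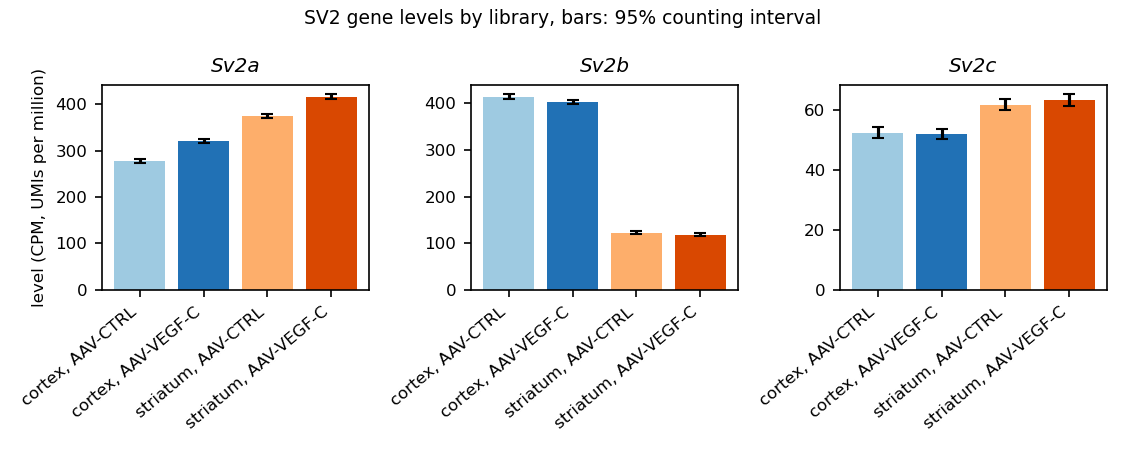
Level of Sv2a, Sv2b and Sv2c in each library, in CPM (vertical axis, from 0, with its own scale per gene), with exact Poisson 95% intervals as error bars. Sv2b stood at 414 and 403 CPM in the cortex libraries and at 123 and 118 CPM in the striatum libraries, while Sv2c stayed between 51.9 and 63.3 CPM.

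Between viruses the 3 genes differed little at this level. The log2 ratio of AAV-VEGF-C over AAV-CTRL for Sv2a was 0.21 (interval 0.18 to 0.24) under the cortex label and 0.15 (0.13 to 0.18) under the striatum label. For Sv2b it was -0.04 (-0.07 to -0.02) and -0.05 (-0.10 to -0.01). Sv2c gave -0.02 (-0.09 to 0.05) and 0.03 (-0.03 to 0.10), so its intervals held 0 under both labels. None of the 3 genes passed 1.5-fold in either comparison, where 1.12% (cortex) and 2.74% (striatum) of all genes with at least 100 UMIs did. Both AAV-VEGF-C libraries were also deeper, with medians of 2873 against 2622.5 UMIs per nucleus (cortex) and 2647 against 2272 (striatum). With every nucleus thinned to 1000 UMIs the Sv2a ratios were 0.12 and 0.09. Thinning also gives each nucleus equal weight and leaves out those with fewer UMIs, so it changes the mix of cells as well as the depth. It moved Sv2a in cortex AAV-CTRL from 279 to 325 CPM. The 2 effects were not told apart.

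Between region labels, Sv2b was the member that differed most. Its log2 ratio of striatum over cortex was -1.76 (-1.79 to -1.72) in the AAV-CTRL pair and -1.77 (-1.81 to -1.73) in the AAV-VEGF-C pair. Of the 3 genes Sv2b alone passed 1.5-fold, against a background of 26.1% of all genes in the first pair and 26.6% in the second (8.24% lower in each). Sv2a was higher under the striatum label by 0.43 (0.40 to 0.46) and 0.37 (0.35 to 0.40), and Sv2c by 0.24 (0.17 to 0.30) and 0.29 (0.22 to 0.35). The median of all genes was itself shifted by 0.18 and 0.19, and scaled with size factors instead, the Sv2c ratios were 0.05 and 0.09. A library sum mixes the make-up of the library with the level in each cell type, and the classes below separate them.

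Nuclei were clustered without the SV2 genes and named from marker genes, and a name ends in "-like" because it rests on markers alone. The 43 named classes differed most in Sv2c. Dopaminergic neuron-like nuclei, led by Slc6a3, the dopamine transporter, and Slc18a2, the vesicular monoamine transporter, had the highest Sv2c level: 857 CPM (744 to 983) in 36 nuclei of striatum AAV-CTRL and 897 CPM (794 to 1009) in 36 nuclei of striatum AAV-VEGF-C. The cortex libraries held 2 and 1 such nuclei. Cholinergic neuron-like nuclei, led by Chat and the choline transporter Slc5a7, were few in every library (16, 8, 9 and 16 nuclei) and had Sv2c at 431, 627, 709 and 692 CPM. These classes were the 2 highest in the pooled libraries, at 861 CPM (786 to 941) and 618 CPM (544 to 699). The pooled intervals did not overlap, but the pool mixes libraries unequally. Its dopaminergic nuclei came almost all from the striatum libraries and its cholinergic nuclei from both labels. Within the striatum libraries the 2 classes were closer, at 857 and 709 CPM with AAV-CTRL and 897 and 692 CPM with AAV-VEGF-C.

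Lamp5 interneuron-like nuclei came next. Lamp5 marks a group of superficial cortical GABA neurons that includes neurogliaform cells, and their Sv2c level was 404 CPM (355 to 458) in cortex AAV-CTRL and 351 CPM (309 to 396) in cortex AAV-VEGF-C. The other cortical interneuron classes were far lower. Sst interneuron-like nuclei had 17.3 and 15.4 CPM, Pvalb interneuron-like nuclei 13.9 and 9.25 CPM, and Vip interneuron-like nuclei 16.4 and 14.6 CPM in the same libraries. Microglia-like nuclei, which should lack a synaptic vesicle gene, had 18.4 and 20.2 CPM there and pericyte-like nuclei 7.13 and 11.7 CPM. The levels in Sst, Pvalb and Vip interneuron-like nuclei lay within or close to the range of these non-neuronal classes and are not read as expression. Levels were not corrected for differences in depth between classes, so they do not show that Sv2c is absent there either. Lamp5 interneuron-like nuclei stood 22.0-fold (13.4 to 38.3) and 17.3-fold (11.1 to 28.5) above the microglia-like nuclei of their own library.

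Within the Lamp5 class, Sv2c differed between clusters. A cluster of 131 nuclei led by Npy and Pde11a had 519 CPM (462 to 581), another of 131 led by Ndnf and Egfr had 290 CPM (248 to 338), and one of 58 led by Hapln1 and Pde11a had 186 CPM (138 to 244), over the pooled libraries. The 3 intervals did not overlap, and all lay above the pooled microglia-like level of 25.4 CPM (20.3 to 31.4).

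Striatal projection neuron-like nuclei carried Sv2c in both dopamine receptor classes. The D1 class, named from Drd1 and Tac1, had 198, 200, 223 and 205 CPM in the 4 libraries. The D2 class, named from Drd2 and Adora2a, had 197, 204, 278 and 223 CPM. Levels of D1 and D2 overlapped in their intervals when pooled, at 203 CPM (194 to 213) and 210 CPM (198 to 222). Among D1 clusters, one of 283 nuclei led by Drd3 and Rarb had 270 CPM (245 to 298), and the main one of 868 nuclei had 185 CPM (173 to 198). A Drd3-led cluster of 64 nuclei that could not be split into D1 and D2 had 396 CPM (319 to 486). Olfactory sensory neuron-like nuclei, 231 of 256 of them in the striatum AAV-CTRL library, had Sv2c at 320 CPM (270 to 377) in that library. Olfactory sensory neurons are cells of the nasal epithelium.

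The remaining neurons fell into a middle and a low range for Sv2c. Dentate granule neuron-like nuclei had 79.0, 88.2, 94.4 and 89.9 CPM in the 4 libraries, and other neurons with Gad1, Gad2 or Slc32a1 had 82.7, 83.4, 75.0 and 78.6 CPM. Habenular neuron-like nuclei had 102 and 73.2 CPM in the striatum libraries, where other Slc17a6 neurons had 59.3 and 56.6 CPM and microglia-like nuclei 33.0 and 34.3 CPM. Layer 5 subcerebral neuron-like nuclei had 80.8 and 74.9 CPM in the cortex libraries, but their clusters were unlike each other: pooled levels were 225 CPM (190 to 264) in one of 86 nuclei led by AI481877 and Erg and 4.76 CPM (0.98 to 13.9) in one of 83 nuclei led by L3mbtl4. Upper-layer, Rorb and layer 6 corticothalamic neuron-like nuclei had between 10.9 and 20.9 CPM in the cortex libraries, beside 18.4 and 20.2 CPM in microglia-like and 7.13 and 11.7 CPM in pericyte-like nuclei, and hippocampal pyramidal neuron-like nuclei had 9.24 and 9.64 CPM. Thalamic glutamatergic neuron-like nuclei had 16.0 and 15.6 CPM in the striatum libraries, below the microglia-like nuclei there and close to the pericyte-like ones at 14.6 and 15.7 CPM. All these levels lay at or near those of non-neuronal classes and are not read as expression. Free RNA was not measured and depth was not corrected for, so they do not show absence either.

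**Figure D2:**
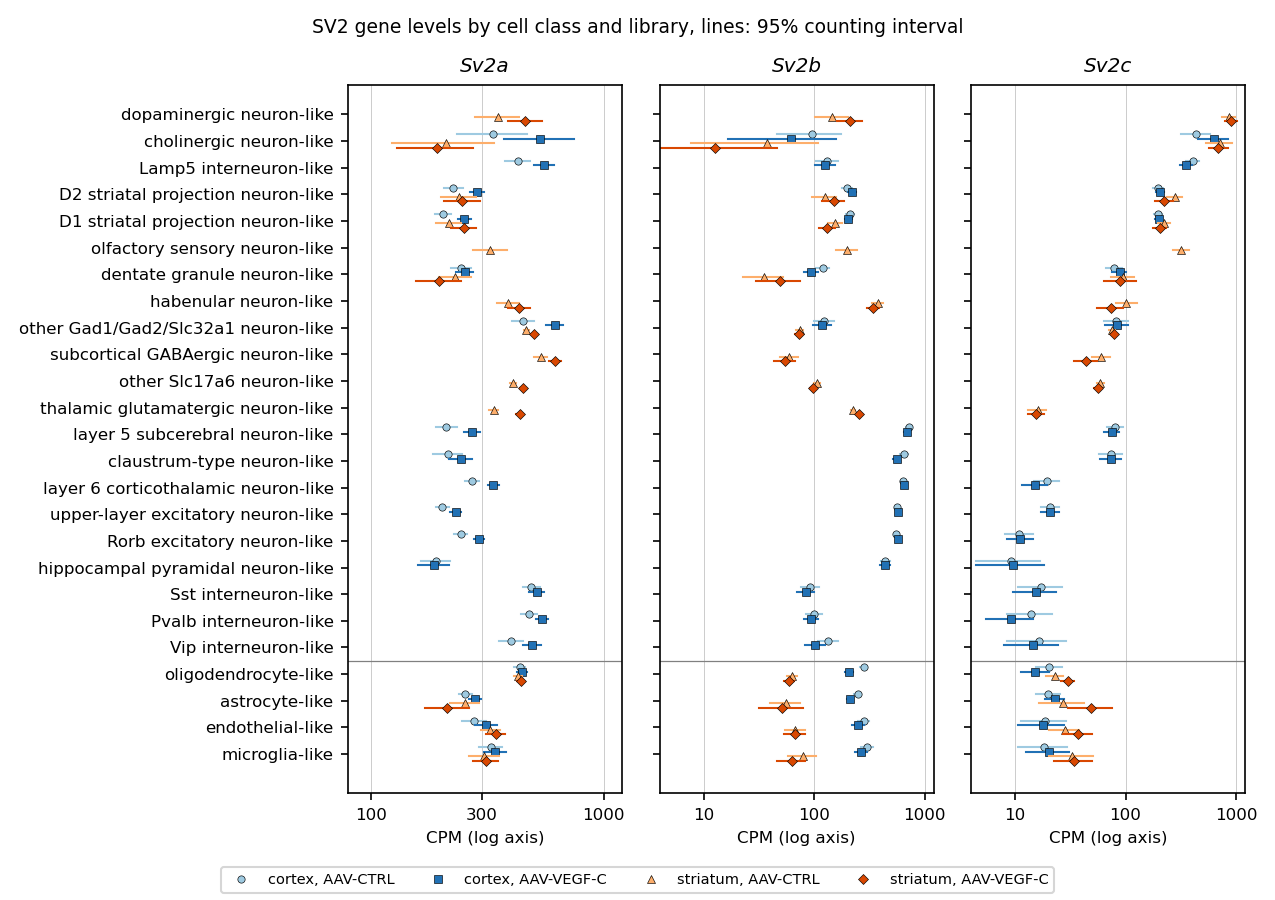
Sv2a, Sv2b and Sv2c in 25 cell classes (vertical axis) and the 4 libraries (colours and symbols), as CPM on a log axis with exact Poisson 95% intervals; classes need 50 nuclei in a library, or 8 for the dopaminergic and cholinergic neuron-like nuclei, and classes under the grey line are not neurons. Over these 25 classes Sv2c ran from 9.24 CPM in hippocampal pyramidal neuron-like nuclei to 897 CPM in dopaminergic neuron-like nuclei, Sv2b was highest in cortical excitatory classes, and Sv2a spread least.

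Sv2b was highest among excitatory neuron-like classes in the cortex libraries, but not every glutamatergic class had a high level. In cortex AAV-CTRL and cortex AAV-VEGF-C it stood at 723 and 688 CPM in layer 5 subcerebral neuron-like nuclei, 641 and 655 CPM in layer 6 corticothalamic neuron-like nuclei, and 564 and 569 CPM in upper-layer excitatory neuron-like nuclei. Hippocampal pyramidal neuron-like nuclei had 439 and 438 CPM. Dentate granule neuron-like nuclei, which are also glutamatergic, had only 119 and 94.0 CPM. GABA classes were low as well: Sst interneuron-like nuclei had 92.4 and 83.8 CPM and Pvalb interneuron-like nuclei 100.2 and 94.0 CPM. Non-neuronal nuclei of these libraries held Sv2b at unequal levels, with 302 and 266 CPM in microglia-like, 281 and 249 CPM in endothelial-like and 88.4 and 119 CPM in pericyte-like nuclei. Sv2b in dentate granule, Sst and Pvalb neuron-like nuclei lay below the first 2 of these classes.

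In the striatum libraries Sv2b was lower in the same classes, at 79.1 and 62.4 CPM in microglia-like, 67.4 and 67.0 CPM in endothelial-like and 36.4 and 27.8 CPM in pericyte-like nuclei. It stood above all of them in cerebellar granule neuron-like nuclei, with 383 and 388 CPM, in habenular neuron-like nuclei, with 375 and 342 CPM, and in thalamic glutamatergic neuron-like nuclei, with 224 and 252 CPM. Subcortical GABAergic neuron-like nuclei had 59.4 and 54.0 CPM. D1 striatal projection neuron-like nuclei were sampled under both labels, with 613, 756, 272 and 190 nuclei. Their Sv2b level was 211 and 204 CPM in the cortex libraries, below the microglia-like level there, and 156 and 131 CPM in the striatum libraries, 1.97-fold (1.43 to 2.76) and 2.10-fold (1.52 to 2.96) above it. The part of free RNA in the difference within the class was not tested.

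Sv2a was counted in every class of cells, neurons or not. Its pooled levels were highest in subcortical GABAergic neuron-like nuclei, at 573 CPM (548 to 599), and in Pvalb, Sst and Lamp5 interneuron-like nuclei, at 515, 502 and 494 CPM. Projection neurons were lower: D1 and D2 striatal projection neuron-like nuclei had 232 and 258 CPM, upper-layer excitatory neuron-like nuclei 218 CPM and hippocampal pyramidal neuron-like nuclei 187 CPM. Microglia-like and endothelial-like nuclei had 324 and 317 CPM, above these projection neurons. Oligodendrocyte-like nuclei had 435, 446, 429 and 439 CPM in the 4 libraries, 1.35-fold (1.26 to 1.44) the pooled microglia-like level, while pericyte-like nuclei had 137 CPM. The ratio of Sv2b to Sv2a levels also differed among non-neuronal classes of 1 library, from 0.64 in oligodendrocyte-like to 1.01 in endothelial-like nuclei of cortex AAV-CTRL, beside 1.49 in that whole library.

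The share of each gene's UMIs by cell group shows where the transcripts sat. In the cortex libraries, striatal projection neurons held 9.18% and 10.1% of all UMIs but 35.1% and 38.5% of Sv2c UMIs. Cortical excitatory neurons held 43.6% and 44.6% of all UMIs and 23.8% and 22.8% of Sv2c. Lamp5 interneurons held 1.04% and 1.07% of all UMIs and 8.04% and 7.24% of Sv2c. Sst, Pvalb and Vip interneurons together held 5.87% and 6.24% of all UMIs and 1.75% and 1.5% of Sv2c. In the striatum libraries, dopaminergic and cholinergic neurons held 0.49% and 0.75% of all UMIs and 6.44% and 9.86% of Sv2c. Subcortical and other Gad neurons held the largest share of Sv2c, 24.5% and 24.6%, beside 20.8% and 21.0% of all UMIs. Slc17a6 neurons held 19.6% and 19.4% of Sv2c, less than their 27.9% and 31.7% of all UMIs. Striatal projection neurons held 11.4% and 9.14% of Sv2c there, above their 2.94% and 2.71% of all UMIs. Unresolved neurons held another 13.6% to 19.3% of Sv2c UMIs across the 4 libraries, beside 9.99% to 11.1% of all UMIs. For Sv2b, cortical excitatory neurons held 65.3% and 67.9% in the cortex libraries, and Slc17a6 neurons 37.0% and 47.4% in the striatum libraries.

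**Figure D3:**
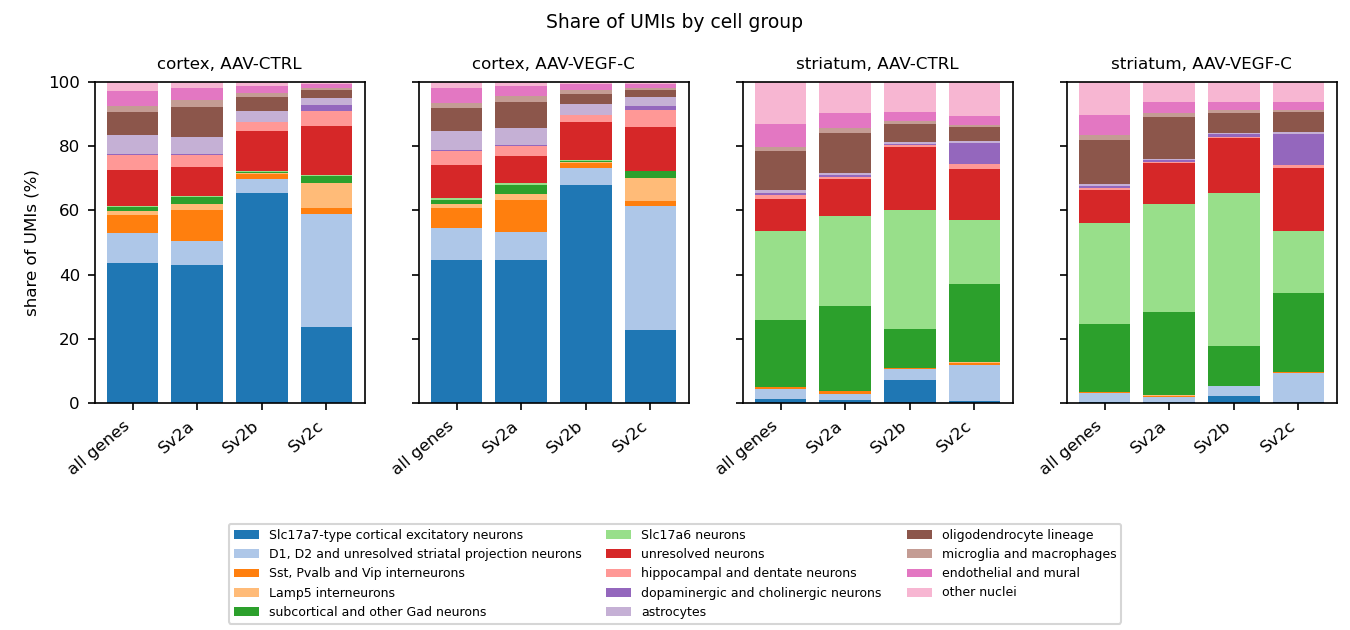
Share of UMIs (vertical axis, percent) held by 14 cell groups in each library, for all genes and for Sv2a, Sv2b and Sv2c. In the cortex libraries striatal projection neurons held 35.1% and 38.5% of Sv2c UMIs, and cortical excitatory neurons 65.3% and 67.9% of Sv2b UMIs.

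The study named a group of Sv2c interneurons, so the transmitter genes of nuclei with Sv2c were counted. These are neuronal nuclei of any class with an Sv2c UMI, not the cluster of the study, whose nuclei were not matched here. With nuclei thinned to 1000 UMIs, 2393 of 38003 neuronal nuclei (6.30%) had an Sv2c UMI. Of these, 31.6% (29.7 to 33.5) had Gad1, Gad2 or Slc32a1, the GABA genes, and no vesicular glutamate transporter gene of the Slc17a group, against 22.6% (22.2 to 23.0) of the 35610 neurons without Sv2c. Those with an Slc17a gene and no GABA gene were 16.4% (14.9 to 17.9) against 23.6% (23.2 to 24.1), and 44.3% against 46.8% had neither at this depth. The GABA share was the higher one with Sv2c in each library: 27.7% against 15.7%, 27.0% against 15.1%, 36.7% against 31.5% and 34.9% against 30.7%. Nrp2, the gene of a VEGF-C co-receptor, was seen in 9.28% (8.14 to 10.5) and 8.05% (7.77 to 8.34) of the pooled neurons with and without Sv2c, but the order was not the same in every library, with 12.5% against 10.4% in striatum AAV-CTRL and 9.45% against 10.6% in striatum AAV-VEGF-C. Unthinned, 1214 neurons had at least 3 Sv2c UMIs; 19.5% of them were unresolved, 15.6% D1 and 11.1% D2 striatal projection neuron-like, 15.2% other neurons with GABA genes, 9.47% other Slc17a6 neurons, 7.0% Lamp5 interneuron-like and 3.87% dopaminergic neuron-like. Unresolved neurons were also common among all neurons, at 1161 of 9699, 1308 of 11513, 2729 of 10187 and 2344 of 8294 in the 4 libraries. Their share is therefore not read as an excess. Shares of the other classes among all neurons are not set beside theirs, and unthinned counts favour nuclei with more UMIs. Nuclei with Sv2c thus included GABA, glutamate, dopamine and acetylcholine neurons.

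Co-detection was measured in the same thinned nuclei. Sv2c was seen in 40.0% of dopaminergic, 26.6% of Lamp5, 19.0% of D2 and 18.5% of D1 neuron-like nuclei (median depths of 7061, 4340, 4657 and 4836.5 UMIs before thinning), against 2.48% of microglia-like nuclei (median 1512) and 2.67% of endothelial-like nuclei (median 1546). Unthinned, the same shares were 78.7%, 65.0%, 56.2% and 55.3%, and 3.79% in microglia-like nuclei. Thinning left out 425 to 1481 nuclei per library that had fewer than 1000 UMIs. In D1 nuclei, 3.45% had both Sv2b and Sv2c, where the product of the single shares is 3.30%, and 3.61% had both Sv2a and Sv2c, where it is 3.73%. Lamp5 nuclei had both Sv2a and Sv2c in 9.06%, beside a product of 10.5%. Over all neurons, 6.90% had Sv2a and Sv2b (product 7.21%) and 1.11% had Sv2b and Sv2c (product 1.45%). Pairs were thus seen at close to the product of their shares in D1 nuclei. The Lamp5 share was below its product, but that class is small, with 136 and 161 nuclei in the cortex libraries. No interval is given for it, so it is not read as a difference. Over all neurons, Sv2b with Sv2c was also below its product. The products are a description, and at this depth they do not show that the genes are independent.

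Between viruses, the classes were compared where both libraries of a label held at least 50 nuclei, which left 33 classes under the cortex label and 23 under the striatum label, the unnamed nuclei counted as 1 class. All classes of a label come from the same 2 libraries, so a shift of a whole library recurs in them and they are not separate observations. No share of all genes is set beside the counts of intervals. Sv2a was higher with AAV-VEGF-C in 30 of 33 cortex classes, with a median log2 ratio of 0.21 and an interval above 0 in 17 of them. It was higher in 15 of 23 striatum classes, with a median of 0.04 and intervals above 0 in 5 and below 0 in 1. Of these 5, other Gad neurons (0.11) and other Slc17a6 neurons (0.14) had ratios of -0.034 and -0.066 once nuclei were thinned to 1000 UMIs. Of the 17 in cortex, astrocyte-like nuclei (0.14) had -0.048 after the same thinning. The highest ratio in a cortex class was 0.58 (0.35 to 0.82) in Tshz2 excitatory neuron-like nuclei, from 341 to 512 CPM. In Lamp5 interneuron-like nuclei Sv2a went from 428 to 555 CPM, a ratio of 0.38 (0.15 to 0.61), and in thalamic glutamatergic neuron-like nuclei of the striatum libraries from 337 to 436 CPM, a ratio of 0.37 (0.30 to 0.45). No class with at least 100 Sv2a UMIs passed 1.5-fold, where 0.926% to 27.3% of all genes did so within a class (median 2.9% over 56 class comparisons).

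Sv2b was higher with AAV-VEGF-C in 9 of 33 and 9 of 23 classes. Its intervals lay below 0 in 7 cortex classes, 3 of them neuronal, and above 0 in 1, pericyte-like nuclei (0.43, 0.10 to 0.77). Under the striatum label they lay above 0 in 2 classes and below 0 in 2. Thalamic glutamatergic neuron-like nuclei were among the higher, at 224 and 252 CPM (0.17, 0.07 to 0.26), and unresolved neurons among the lower, at 244 and 203 CPM (-0.27, -0.37 to -0.16). The remaining higher class was the other subcortical glutamatergic neuron-like nuclei, at 63.7 and 107 CPM from 35 and 57 UMIs (0.75, 0.12 to 1.40). The remaining lower one was the unnamed nuclei, at 79.8 and 60.4 CPM (-0.40, -0.62 to -0.18). Non-neuronal cortex classes with lower Sv2b included oligodendrocyte-like nuclei, at 280 and 207 CPM (log2 ratio -0.44, -0.59 to -0.29), and astrocyte-like nuclei, at 247 and 211 CPM (-0.23, -0.36 to -0.09). The microglia-like level went from 302 to 266 CPM in the same pair. In cortical excitatory neuron-like nuclei without a layer name, Sv2b stood at 686 and 640 CPM (-0.10, -0.16 to -0.04). Among classes with at least 100 Sv2b UMIs, differentiating oligodendrocyte-like nuclei of the cortex pair alone passed 1.5-fold. They stood at 143 and 84.2 CPM from 63 and 48 UMIs (-0.76, -1.33 to -0.20), and 5.06% of all genes passed it in that class.

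For Sv2c the direction between viruses varied, and its ratio was above 0 in 15 of 33 and 12 of 23 classes, with medians of -0.07 and 0.00. Intervals lay below 0 in 1 cortex class, and above 0 in 3 and below 0 in 1 of the striatum classes. They held 0 in the following classes. Lamp5 interneuron-like nuclei had 404 and 351 CPM, D1 nuclei 198 and 200 CPM and D2 nuclei 197 and 204 CPM in the cortex pair, and D1 nuclei 223 and 205 CPM and D2 nuclei 278 and 223 CPM in the striatum pair. One class with at least 100 Sv2c UMIs passed 1.5-fold, the unresolved striatal projection neuron-like nuclei of the cortex pair, at 240 and 142 CPM (log2 ratio -0.75, -1.23 to -0.29); 6.97% of all genes did so in that class. It holds 3 clusters, and the Drd3-led cluster with the highest Sv2c level had 31 nuclei in the AAV-CTRL library and 8 in the AAV-VEGF-C library, doublets included. Unresolved neurons of the striatum pair, which held 16.0% and 19.3% of Sv2c UMIs there, had 99.2 and 122 CPM (0.30, 0.14 to 0.45). Oligodendrocyte-like nuclei of that pair had 22.9 and 30.0 CPM (0.39, 0.06 to 0.71). Of the 3 higher classes, the largest ratio was in other subcortical glutamatergic neuron-like nuclei, at 25.5 and 50.8 CPM from only 14 and 27 UMIs (1.00, 0.01 to 2.04). Subcortical GABAergic neuron-like nuclei were the lower class, at 60.0 and 43.6 CPM (-0.46, -0.91 to -0.02), and their ratio was above 0 when nuclei were clustered with the SV2 genes (0.063).

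**Figure D4:**
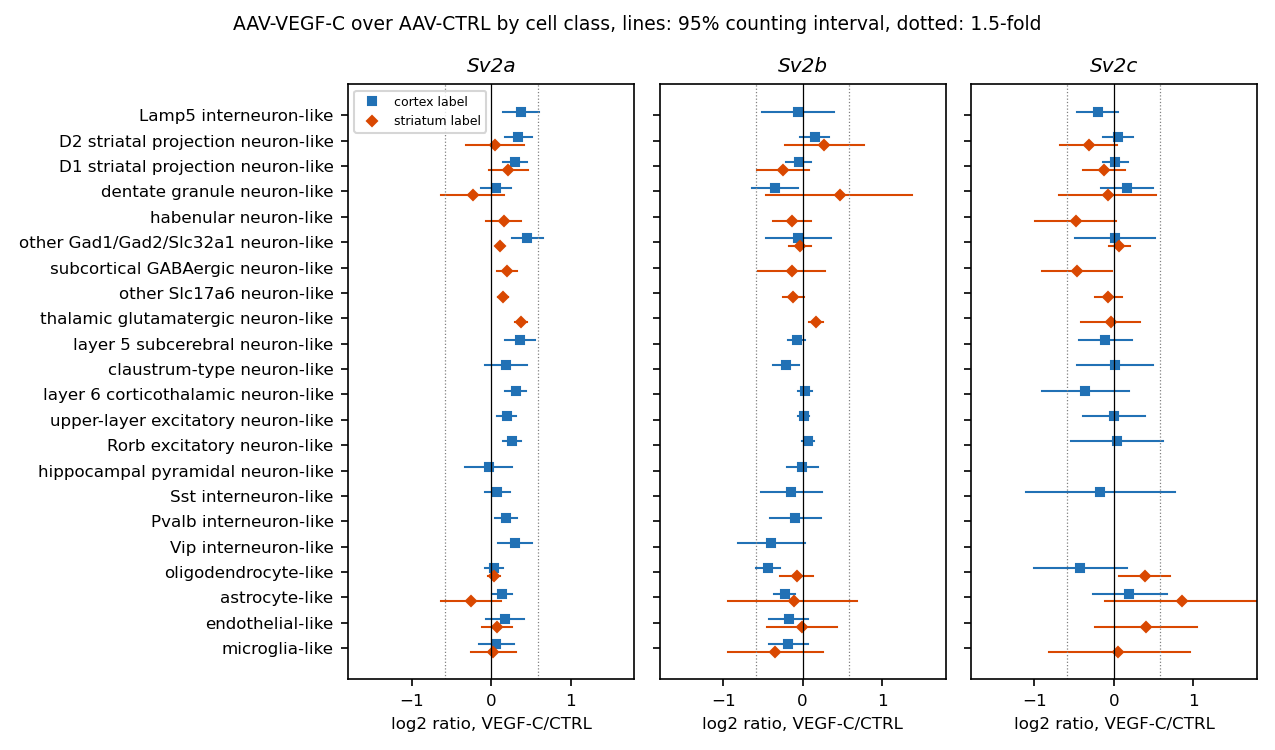
Log2 ratio of AAV-VEGF-C over AAV-CTRL (horizontal axis) of each SV2 gene in 22 cell classes (vertical axis) where both libraries held at least 50 nuclei and together at least 40 UMIs, with exact conditional 95% intervals; dotted lines mark 1.5-fold. Sv2a points lie mostly right of 0 under the cortex label, with a median of 0.21 over 33 classes, and Sv2c points lie on both sides.

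Other genes of the synaptic vesicle and its release machinery were counted from a list of 60, all of them with at least 100 UMIs. Between viruses, 0 of 60 passed 1.5-fold under the cortex label, and 1 of 60 under the striatum label: Slc18a3, the vesicular acetylcholine transporter, at 1.84 and 2.89 CPM (log2 ratio 0.65, 0.31 to 0.99). Of all genes 1.12% and 2.74% did so, so the count in the list was not above that of all genes. Slc18a3 is in the marker list of cholinergic neurons. Nuclei of that class were few, and fewer in striatum AAV-CTRL than in striatum AAV-VEGF-C. The part of their number in the Slc18a3 ratio was not tested. The list's median log2 ratios were 0.03 and 0.01, beside medians of -0.01 and 0.00 over all genes. Between region labels 20 of 60 (AAV-CTRL) and 22 of 60 (AAV-VEGF-C) passed it, 10 higher and 10 lower in the first pair and 11 and 11 in the second; of all genes 17.8% and 18.4% were higher by that much and 8.24% lower in both. Slc17a7, the vesicular glutamate transporter of cortical neurons, was among the lower ones with Sv2b, at 422 and 59.4 CPM in the AAV-CTRL pair, and Slc17a6, that of subcortical neurons, among the higher ones, at 15.9 and 149 CPM. The t-SNARE gene Stx1a went from 135 to 30.9 CPM and the calcium sensor gene Syt9 from 15.9 to 91.9 CPM. With size factors 8 were higher and 18 lower in the AAV-CTRL pair, where 12% and 11.9% of all genes were, and 10 were higher and 23 lower in the AAV-VEGF-C pair, where 12% and 11.7% of all genes were.

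The profiles of the 3 genes over classes were unlike one another. Over 111 sums of a class in a library, of at least 50 nuclei each, Pearson correlations of log2(CPM + 1) were 0.06 between Sv2a and Sv2b, 0.15 between Sv2a and Sv2c and -0.01 between Sv2b and Sv2c. These sums share libraries and depth. Among 11259 genes, the profiles most like Sv2a included those of Kif1a (0.81), the kinesin that carries synaptic vesicle precursors, Stmn3 (0.78), Syngr3 (0.77), a vesicle protein gene, and Clstn3 (0.74). Most like Sv2b were R3hdm2 (0.81), Bsn (0.81), which encodes the active zone protein bassoon, Lingo1 (0.78), Khdrbs3 (0.77) and Homer1 (0.76), a postsynaptic scaffold gene. Most like Sv2c were Gnal (0.73), Ric8b (0.65), Clip4 (0.62), Erlin1 (0.60) and Rgs9 (0.60). Gnal encodes the G protein alpha subunit of striatal and olfactory neurons, and Ric8b a chaperone of that subunit. Rgs9 encodes a striatal regulator of G protein signalling. Gnal is in the marker list of olfactory sensory neurons and Rgs9 in that of striatal projection neurons, so both were used in naming the classes compared here. The dopaminergic and cholinergic neuron-like nuclei, with under 50 nuclei in every library, are not among these sums.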

How the data were processed

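The authors deposited filtered matrices of UMI counts per gene and nucleus for 4 libraries made with a droplet 3′ kit, aligned to mm10. The labels name Cell Ranger 5.1.1 and the file headers 5.0.1; whether intronic reads were counted is not given in the sources used here. All 78728 barcodes passed the 200-UMI minimum stated by the study (lowest 719 UMIs), and totals ran from 63165470 to 78332657 UMIs per library.

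From the deposited counts, doublets were called with Scrublet per library (4791 nuclei) and left out with clusters of which at least 40% were called, 6075 nuclei in all. Nuclei were clustered without Sv2a, Sv2b and Sv2c (5000 variable genes, 50 components, 15 neighbours, Leiden resolution 1.2, then 0.6 within clusters; 246 clusters; scanpy 1.11.5, leidenalg 0.10.2, Python 3.11.15). A marker counted at 2-fold and 10% of nuclei; non-neuronal classes needed at least 3 counted markers and 60% of their list, neuron types 3 and 40% with the first-listed marker, and neuronal clusters 3 pan-neuronal markers at 1.5-fold. These thresholds were set after the clusters were seen. The members, marker lists and the vesicle list were chosen with earlier results of these data known.

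Counts were summed per class and library and scaled to 1000000 UMIs of the kept nuclei (CPM). Intervals are exact Poisson for levels, conditional binomial for ratios and Clopper-Pearson for shares (95%, scipy 1.17.1); genes with under 100 UMIs over both libraries were left out of the 1.5-fold counts. Detection used nuclei thinned to 1000 UMIs. Genes named are the members, the 5 most alike in profile (mean of at least 10 CPM; a gene among those of Sv2a is not reported here), transmitter genes, Nrp2, and examples from the vesicle list past 1.5-fold; genes that lead a cluster are named to identify it, and clusters were chosen for description after their values were seen. The ratio and thinning steps were tested on simulated data. Gene positions are those of GENCODE on GRCm38. Replicate numbers follow accession order and pair nothing. Alternatives were the doublet filter, size factors, thinning, neuronal nuclei alone, clustering with the SV2 genes or at resolution 2.5, and neuron types from marker UMIs.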

Additional observations from a re-analysis of the deposited data

How the results depend on the processing

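No paired analysis was possible because each group has 1 library, and for the same reason no library could be left out. The direction of every library-wide ratio of Sv2a and of Sv2b was kept under every alternative; that of Sv2c between viruses under the cortex label, whose interval held 0, was -0.017 with the doublet filter and 0.0021 without it, on the log2 scale. Without the doublet filter, Sv2a stood at 369 CPM in striatum AAV-CTRL and Sv2b at 409, 396, 118 and 115 CPM in the 4 libraries, cortex first and the control virus first, with a striatum over cortex log2 ratio of -1.79 for Sv2b in the AAV-CTRL pair. In neuronal nuclei alone, Sv2a stood at 328 CPM in cortex AAV-VEGF-C and at 407 and 465 CPM in the striatum libraries, Sv2b at 467, 459, 153 and 148 CPM, and Sv2c at 62.8, 61.0, 76.5 and 78.1 CPM. There the AAV ratio of Sv2a was 0.19 in the striatum pair, and striatum over cortex was 0.55 and 0.51 for Sv2a, -1.61 and -1.63 for Sv2b and, in the AAV-VEGF-C pair, 0.36 for Sv2c. With size factors, Sv2a stood at 297, 343, 353 and 389 CPM, Sv2b at 442, 430, 115 and 110.3 CPM, and Sv2c at 56.0, 55.4, 58.2 and 59.1 CPM. Striatum over cortex was then 0.25 and 0.18 for Sv2a, -1.94 and -1.96 for Sv2b and 0.054 and 0.092 for Sv2c. With nuclei thinned to 1000 UMIs, Sv2a stood at 325, 353 and 397 CPM in the first 3 libraries, Sv2b at 364, 342, 103 and 99.5 CPM, and Sv2c at 48.7, 46.6, 55.1 and 57.3 CPM. AAV ratios were then 0.12 and 0.086 for Sv2a and, under the cortex label, -0.089 for Sv2b, and striatum over cortex was 0.29 and 0.25 for Sv2a and -1.82 for Sv2b in the AAV-CTRL pair. By Spearman correlation, 3 of the 5 profiles most like Sv2b and 1 of the 5 most like Sv2c were shared. Among AAV ratios of single classes, thinning reversed 3 of 164, all for Sv2a: -0.048 in astrocyte-like nuclei (cortex), -0.034 in other Gad neurons and -0.066 in other Slc17a6 neurons (striatum). Naming neurons from marker UMIs gave 0.24 for Sv2b in claustrum-type nuclei (cortex) where it was -0.21, and 0.53 for Sv2c in subcortical GABAergic nuclei (striatum), where it was -0.46; clustering with the SV2 genes gave 0.063 for the latter. The cause of these changes was not tested.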

Other observations

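Some small clusters stood apart in their SV2 levels and are described after their values were seen. A cluster of 22 nuclei with GABA genes led by Dach2 and Pax7, all from the striatum libraries, had Sv2c at 533 CPM (406 to 687), beside 77.2 CPM in the whole class of neurons with GABA genes and no type name.

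Within the cholinergic neuron-like class, a cluster of 18 nuclei led by Chat and Mgarp and holding Ngfr among its leading genes had 829 CPM (698 to 977), and one of 31 nuclei led by Chat and Slc5a7 had 464 CPM (381 to 560). Their Sv2a levels were in the other order, at 193 CPM (133 to 271) and 358 CPM (285 to 443). In layer 5 subcerebral neuron-like nuclei the same kind of contrast was seen for Sv2b: the cluster with Sv2c at 225 CPM had Sv2b at 359 CPM (315 to 408), and the cluster with Sv2c at 4.76 CPM had Sv2b at 891 CPM (819 to 968).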
